A study of Mus musculus with 6 samples.

Results

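Mitochondrial carriers are the proteins of the Slc25a family, most of which sit in the inner mitochondrial membrane and move metabolites between the cytosol and the mitochondrial matrix. The genes examined here were the 33 mouse genes whose symbol is Slc25a followed by a number and that lie on sequence covered by the deposited peak list, out of 46 such genes in the gene table; Slc25a31 was left out by the rule. The other 13 (Slc25a4, Slc25a5, Slc25a14, Slc25a15, Slc25a18, Slc25a20, Slc25a22, Slc25a26, Slc25a36, Slc25a38, Slc25a42, Slc25a43 and Slc25a53) lie on chromosomes 7, 8, 9 and X or on the part of chromosome 6 beyond the last complete line of the list, and were not analysed here. In all, 36520 genes of any kind, 15771 of them protein-coding, lay on covered sequence.

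The carriers share a fold of repeated membrane-spanning helices and differ in what they carry: adenine nucleotides and coenzymes, amino acids, carboxylic acids of the TCA cycle, phosphate, iron or glutathione. Through them the matrix exchanges ATP, reducing equivalents and carbon with the cytosol, which ties them to glycolysis and respiration. DNA methylation at CpG sites is copied to new strands by Dnmt1. In mammals it is usually low over CpG-rich gene starts and high in the bodies of transcribed genes.

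The study profiled methylated DNA by MBD-seq, which sequences the sonicated DNA that MBD2, a protein that binds methylated CpG, pulls down. The 6 samples were chondrocytes (cartilage cells) cultured from the knee joint cartilage of mice at postnatal days 3 to 5. The 3 control cultures carry the genotype label Dnmt1 flox, with zygosity not given, and the 3 conditional knockout (cKO) cultures are Prx1-Cre;Dnmt1 flox/flox, in which a Cre recombinase under the limb mesenchyme promoter Prx1 acts on floxed Dnmt1. All groups thus share the floxed allele, and both were grown in serum-containing medium. The data were 1 list of 84111 peaks called on 3 merged datasets. Its title speaks of regions of Dnmt1-mediated DNA methylation, and whether it holds all methylated DNA is not stated. The lowest −log10 q in it, the caller's significance of a peak after correction, was 20.004. A gene or promoter without a peak has none past that level, which does not show that it lacks methylation. The list assigns no value to a sample and does not say which cultures were merged. No value below therefore has a replicate error, the depth of each sample is unknown, control and cKO cannot be compared, and neither the deletion nor the cell type could be checked in these data.

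Peaks were assigned to a gene when their midpoint lay in the gene body or within 1 kb of either end, a stretch called the gene window here. The gene table and the promoter table are RefSeq GRCm38.p6, the build that the submitters' processing notes name as GRCm38 or mm10. Fold enrichment is the authors' value for each peak, the ratio of the reads at the summit to the peak caller's background. Because longer genes hold more peaks, each carrier was set beside the protein-coding genes between 0.8 and 1/0.8 times its length, which numbered 176 to 1986 per carrier. These comparisons describe one list and were not tested.

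Promoter sequences are shown first, among them that of the 1 member with a peak over its promoter window. The promoter table, which spans 250 bases before to 50 bases after each annotated start, held 27 windows for 23 of the 33 genes. A peak overlapped the window of 1 of these 23 genes, a count close to the general share. That share was 3.43% of the 12547 protein-coding genes in that table (430 genes). The overlapped gene was Slc25a54. The 250 bases before the start are given for this gene, for Slc25a34, whose peak lay nearest to a start among the other genes of known strand, for Slc25a13, which had most peaks, and for Slc25a40, which had none and the most CpG-rich window of the family. CpG dinucleotides are in capitals, and each sequence runs 5′ to 3′ on the strand of its gene. The start here is that of the promoter table, which can differ from the end in the gene table that all distances to a gene start or end use: 131 bases of the Slc25a13 stretch, 108 of that of Slc25a40 and 57 of that of Slc25a34 lie inside the gene as the gene table gives it, and 0 of that of Slc25a54.
Slc25a54: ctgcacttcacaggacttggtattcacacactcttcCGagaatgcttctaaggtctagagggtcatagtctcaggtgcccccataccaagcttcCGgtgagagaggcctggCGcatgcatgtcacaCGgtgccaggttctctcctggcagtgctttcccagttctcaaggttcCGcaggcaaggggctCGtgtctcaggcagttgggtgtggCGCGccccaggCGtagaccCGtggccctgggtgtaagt
Slc25a34: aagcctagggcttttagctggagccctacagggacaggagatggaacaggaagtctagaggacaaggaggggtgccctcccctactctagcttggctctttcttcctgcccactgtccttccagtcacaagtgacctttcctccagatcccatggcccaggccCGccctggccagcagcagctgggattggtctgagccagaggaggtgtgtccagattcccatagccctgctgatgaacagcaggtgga
Slc25a13: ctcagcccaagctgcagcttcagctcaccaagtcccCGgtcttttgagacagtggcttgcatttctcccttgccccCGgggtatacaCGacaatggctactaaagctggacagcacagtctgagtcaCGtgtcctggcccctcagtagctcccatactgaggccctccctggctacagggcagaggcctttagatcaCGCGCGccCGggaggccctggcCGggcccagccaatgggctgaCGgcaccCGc
Slc25a40: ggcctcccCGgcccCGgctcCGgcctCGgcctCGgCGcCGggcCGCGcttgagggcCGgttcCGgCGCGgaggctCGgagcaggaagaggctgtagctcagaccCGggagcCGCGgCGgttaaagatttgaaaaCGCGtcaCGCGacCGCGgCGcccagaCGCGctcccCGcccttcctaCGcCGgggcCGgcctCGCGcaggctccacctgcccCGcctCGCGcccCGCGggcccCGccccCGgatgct

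The Slc25a54 stretch (chr3:109080249-109080498, plus strand) holds 10 CpG, a number close to the 11 of Slc25a13 (chr6:6217174-6217423, minus strand), whose window no peak overlapped. The Slc25a34 stretch (chr4:141623835-141624084, minus strand) holds 1 CpG and the Slc25a40 stretch (chr5:8422588-8422837, plus strand) 40. Over the full 300-base windows, the family ranged from 1 to 47 CpG with a median of 15, against a median of 14 over 15401 windows of protein-coding genes. Slc25a54 had 15. Among all protein-coding windows with 10 to 19 CpG a peak overlapped 4.30%, among those with 20 or more 0.859%, among those with 5 to 9 8.90% and among those with 4 or fewer 1.63%. The empty promoters of the family include the CpG-rich ones of Slc25a39 (45 CpG), Slc25a29 (32), Slc25a3 (31), Slc25a1 (30) and Slc25a33 (30), where the list-wide share was also lowest.

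Slc25a54, whose listed synonym SCaMC-1like marks it as a relative of the ATP-Mg/phosphate carrier Slc25a24, had its start covered by a peak of 588 bp at chr3:109080222-109080809. The peak's midpoint lay 17 bp inside the gene, its fold was 40.4 and its pileup (the recovered number of reads at the summit) was 297. The second peak of Slc25a54, at chr3:109102761-109102892, had a fold of 7.46. Slc25a24, the neighbour 6.57 kb downstream, held 6 peaks in its body and none within 1 kb of its start. Its promoter window has 19 CpG, and a peak overlapped 4.30% of protein-coding windows with 10 to 19 CpG. Among protein-coding genes of known strand, 6.72% had a peak within 1 kb of the start, so an empty start is the usual state. The list places peaks at the start and further into the body in Slc25a54, and in the body only in Slc25a24.

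Across the family, 27 of 33 genes (81.8%) had at least 1 peak in the gene window, where 66.4% of protein-coding genes did. Each of these 27 also had a peak in the gene body itself, as 64.7% of protein-coding genes did. Genes of similar length had a peak in 67.8% of cases on average, which corresponds to 22.4 of 33. The windows of the family held 93 peaks, against 85.1 for the mean of similar-length genes summed over members. The median was 2 peaks per gene against 1 over all protein-coding genes. In the family 20 genes had more peaks than the median of similar-length genes (39.2% of all protein-coding genes do), 7 had fewer (31.2%) and 6 equalled it. Peak number followed gene length, with a Spearman rho of 0.53 over the 33 genes and 0.64 over all protein-coding genes.

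**Figure D1:**
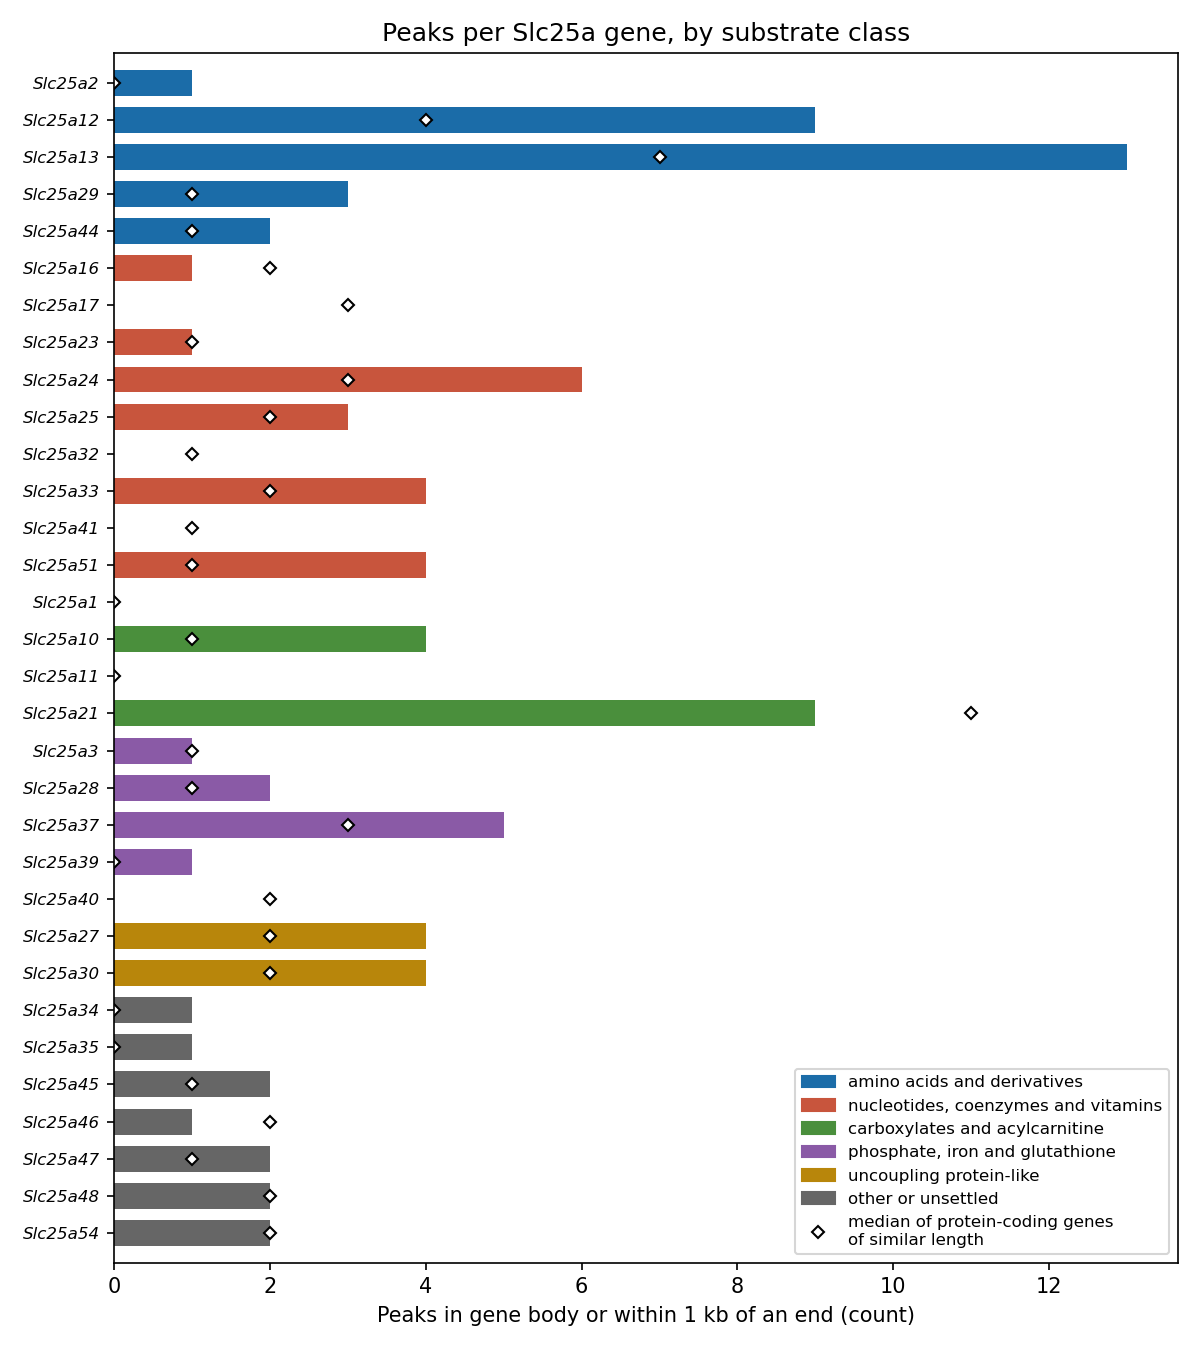
Number of peaks in the body or within 1 kb of an end (x axis) for 32 of the genes (y axis), coloured by substrate class; open diamonds give the median of protein-coding genes of similar length. Bars pass the diamond in 19 of the genes shown, and 6 have no bar.

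Density ranged from 0 to 35.3 peaks per 100 kb of gene window among members. It was 6.64 over the family as a whole and 5.61 over all protein-coding genes. One gene weighs on this value: Slc25a21 is 485 kb long, held 9 peaks (1.85 per 100 kb), and without it the density was 9.19. That density comes from 84 peaks in 32 genes, for which the means of similar-length genes summed to 70.3. The 5.61 over all protein-coding genes is not matched for length and keeps its long genes. The median gene of the family had 10.9 peaks per 100 kb and the median protein-coding gene 4.34, with median lengths of 16.2 kb and 18.6 kb. Between length and density, Spearman rho was -0.36 over the 33 carriers and 0.14 over all protein-coding genes. Genes with few peaks take coarse steps in density, since 1 peak in the 1346 bp gene Slc25a2 alone gives 29.9 per 100 kb.

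**Figure D2:**
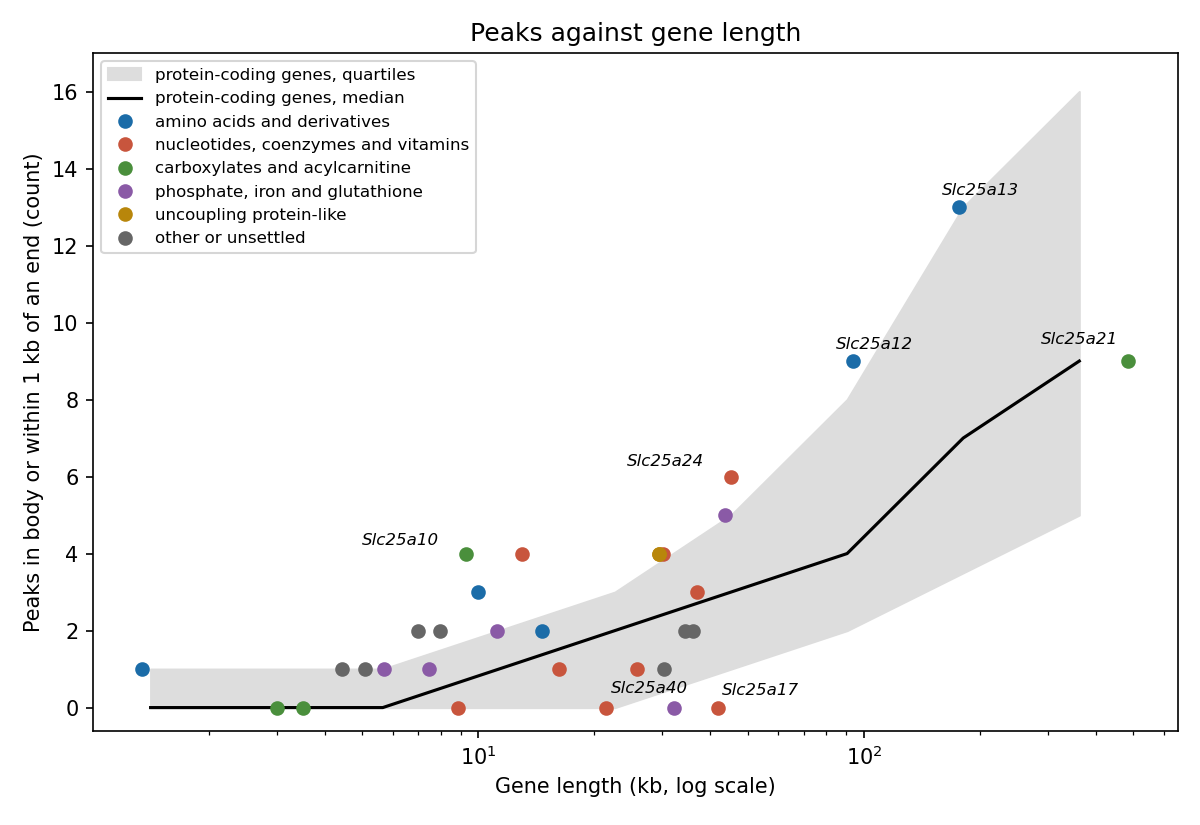
Peaks per gene (y axis) against gene length in kb (x axis, log scale); points are 32 of the carriers by substrate class, the line and the grey band the median and quartiles of protein-coding genes in length bins that double in size. Of the 30 genes within the length range of the band, 13 lie above it, 15 lie in it, and Slc25a17 and Slc25a40 lie below it with 0 peaks. Those above include Slc25a10 and Slc25a51 with 4 peaks each, and Slc25a13 only at the edge of the band.

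The amino acid carriers all had peaks (5 of 5 genes, 28 peaks, 9.16 per 100 kb), and each had more than the median of genes of its length. Genes of similar length had a peak in 70.0% of cases (3.5 of 5), and their mean numbers summed to 18.5 peaks. Slc25a12 and Slc25a13 are the 2 aspartate/glutamate carriers of the malate-aspartate shuttle, which brings the reducing equivalents of cytosolic NADH into the matrix. Slc25a13 held 13 peaks over 176 kb, the most in the family, where similar-length genes had a median of 7 and 25% of them had at least 13. Their folds ran from 6.10 to 22.9 with a median of 15.6. Slc25a12 held 9 peaks where similar-length genes had a median of 4, and 24.2% of those had at least 9. Its folds ran from 6.78 to 33.9, the highest at chr2:71296407-71296982 in the gene body.

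Slc25a29, which carries basic amino acids, had 3 peaks in 9999 bp (25 per 100 kb). The peak at chr12:108826650-108827449 had the second highest fold of the family, 44.5, from a pileup of 395. A neighbouring peak at chr12:108826166-108826487 (fold 10.9) lay 449 bp before the 3′ end of the gene, and the third, at chr12:108832551-108833040, had a fold of 24.4. Slc25a44, a carrier of branched-chain amino acids, had 2 peaks, 1 of them 1070 bp wide with a fold of 43. The single peak of the ornithine carrier Slc25a2 (chr18:37638347-37638930, fold 12.6) also lies within the overlapping entries Gm37013, Gm38666 and Gm38667, so it cannot be assigned to Slc25a2 alone.

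Of the 10 carriers of nucleotides, coenzymes and vitamins, 7 had a peak, with 24 peaks in all and 8.76 per 100 kb. The mean share among similar-length genes was 73.6%, equal to 7.36 genes, and their mean numbers summed to 23.3 peaks. Both counts were thus close to those of genes of similar length. Slc25a51, which carries NAD into the matrix, had 4 peaks in 12995 bp (26.7 per 100 kb), and 11.9% of similar-length genes had at least as many. Its folds ran from 5.97 to 14.8. The widest of them, 1052 bp at chr4:45399231-45400282, stood on a recovered background of 26.8 reads.

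Slc25a33, a pyrimidine nucleotide carrier, had 4 peaks, 2 of them within 1 kb of its 3′ end. One, at chr4:149744564-149745138, lay 815 bp inside the gene with a fold of 35.4, and the other, at chr4:149743085-149743373, lay 807 bp beyond it with a fold of 10.3. The calcium-regulated ATP-Mg/phosphate carriers adjust the adenine nucleotide pool of the matrix, and Slc25a24 (6 peaks), Slc25a25 (3) and Slc25a23 (1) had peaks in their bodies. The 6 folds of Slc25a24 were 28.5, 17.4, 6.10, 8.41, 10.7 and 6.78 from 5′ to 3′, and the high ones were the first of the row. Slc25a41, a relative of this group 2.06 kb from Slc25a23, had none. Slc25a16, linked to coenzyme A transport, had 1 peak, with a fold of 12.1.

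No peak was assigned to Slc25a17, the peroxisomal carrier of coenzyme A and nucleotides, or to the folate carrier Slc25a32. Slc25a17 stands out among the empty genes by length: it spans 41845 bp, and 83.3% of the 1660 genes of similar length had a peak, with a median of 3. The nearest peak, with a fold of 8.14, lay 1420 bp outside the gene. Slc25a17 is thus empty at the 1 kb limit but not at 2 kb, where 28 genes of the family had a peak. For Slc25a32 (21.5 kb) the nearest peak lay 2655 bp away with a fold close to 30, and 72.0% of genes of its length had one. For Slc25a41 the distance was 7624 bp.

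Of the 4 carboxylate carriers, 2 had peaks (13 peaks, 2.56 per 100 kb). Genes of similar length had one in 58.9% of cases (2.36 of 4), so the count of genes was close to that share. The length of Slc25a21 sets this density: the other 3 genes held 4 peaks, all in Slc25a10, or 18.3 per 100 kb. For these 3 genes the means of similar-length genes summed to 2.24 peaks. Slc25a10, the dicarboxylate carrier that exchanges malate or succinate for phosphate, had the highest density of the family, 35.3 peaks per 100 kb, from 4 peaks in 9325 bp. At least 4 peaks were found in 6.03% of similar-length genes. The peaks lay between chr11:120494439-120494667 and chr11:120498204-120498854 with folds of 9.90, 20.6, 29.4 and 24. All stood on the lowest background, and none was within 1 kb of an end. The citrate carrier Slc25a1 and the oxoglutarate carrier Slc25a11 had none. These genes are short, 3009 and 3513 bp, and 38.4% and 38.8% of genes of their lengths had a peak. The nearest peaks lay 22135 bp from Slc25a1 and 13347 bp from Slc25a11.

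Slc25a21, the oxodicarboxylate carrier, was the longest member. Its 9 peaks were under the median of 11 for 176 genes of similar length, of which 63.1% had at least 9. They were also unlike the peaks of the rest of the family. Solving the fold and p-value of each peak for its pileup and background showed that 75% of the whole list shared one lowest background of 6.37 reads. Of the 9 peaks in Slc25a21, 6 stood above it, at 14, 14, 115, 45.2, 105 and 25.6 reads, with folds of 21.2, 11.1, 8.50, 7.66, 3.54 and 12.2. Of these, 4 formed a row within 4.53 kb (chr12:56747764-56748337 to chr12:56751632-56752293). The 3 peaks at the lowest background had folds of 30.8, 17.6 and 23.1.

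In a caller of this kind, a background above the lowest reflects more reads of its comparison set around the summit. Which libraries formed that set is not given in the sources used here. In the other 32 genes, 8 of 84 peaks (9.52%) were above the lowest background, 1 each in 8 genes that include Slc25a2, Slc25a13, Slc25a24, Slc25a27, Slc25a29, Slc25a45 and Slc25a51. Over the whole family the share was 15.1%, and over the peaks of all protein-coding gene windows 14.8%. The peak of Slc25a24 at chr3:109144991-109145702 had the largest of these 8 backgrounds, 93.0 reads under a pileup of 572, and its fold of 6.10 was the lowest of that gene.

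Among the carriers of phosphate, iron and glutathione, 4 of 5 genes had a peak (9 peaks, 8.17 per 100 kb), where genes of similar length gave 65.9% (3.29 of 5) and 9.31 peaks. Slc25a37 and Slc25a28 are the mitoferrins, which import iron for heme and iron-sulfur clusters. Slc25a37 held 5 peaks, and its peak at chr14:69244645-69245358 had the highest fold of the family, 50.1, from a pileup of 368. The other 4 ranged only from 9.36 to 10.4, so a single peak set its maximum. Slc25a28 had 2 peaks with folds of 31.2 and 23.2, the first (chr19:43664183-43664829) 705 bp before its 3′ end. The phosphate carrier Slc25a3 had 1 peak (fold 10.6), which also lies in or near the non-coding gene Gm24119.

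Of the glutathione carriers, Slc25a39 had 1 narrow peak of 129 bp, shared with the microRNA gene Mir6930. Its fold of 6.38 was one of the weakest in the family. The peak's −log10 q of 22.6 was near the lowest of the list, and 47.8% of genes of similar length had a peak. Slc25a40 had none over 32.1 kb, although 79.0% of genes of its length had a peak and their median was 2. Its nearest peak lay 9764 bp away with a fold of 9.35. The uncoupling protein-like carriers Slc25a27 and Slc25a30 had 4 peaks each and nearly equal lengths (29.5 kb), where the median of similar-length genes was 2. At least 4 peaks were found in 27.7% and 27.8% of similar-length genes, and any peak in 76.8% on average (1.54 of 2). The highest folds of Slc25a27 and Slc25a30 were 21 and 34.1.

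Among the 7 genes of other or unsettled substrate, each had 1 or 2 peaks, and 5 had one within 1 kb of an end. Genes of their lengths had a peak in 61.8% of cases (4.33 of 7) and a peak near an end in 22% (1.54 of 7). Slc25a34 and Slc25a35 are related orphans and each had a single peak of similar strength (folds 11.9 and 12.9). That of Slc25a34 (chr4:141623184-141623525) lay 536 bp inside the start, and that of Slc25a35 (chr11:68968753-68969054) 808 bp inside one end. The peak of Slc25a46, an outer-membrane protein that acts in mitochondrial shape, lay at chr18:31580451-31580885, 504 bp inside one end, with a fold of 16.7. The promoter table gives no strand for the last 2. Slc25a47 had a peak 692 bp before its 3′ end (chr12:108855935-108856310, fold 13.2) and another with a fold of 17.6. The choline carrier Slc25a48 and Slc25a45 had 2 peaks each, all in the gene body and over 1 kb from its ends, with folds of 14.4 and 19 and of 14.2 and 13.9.

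**Figure D3:**
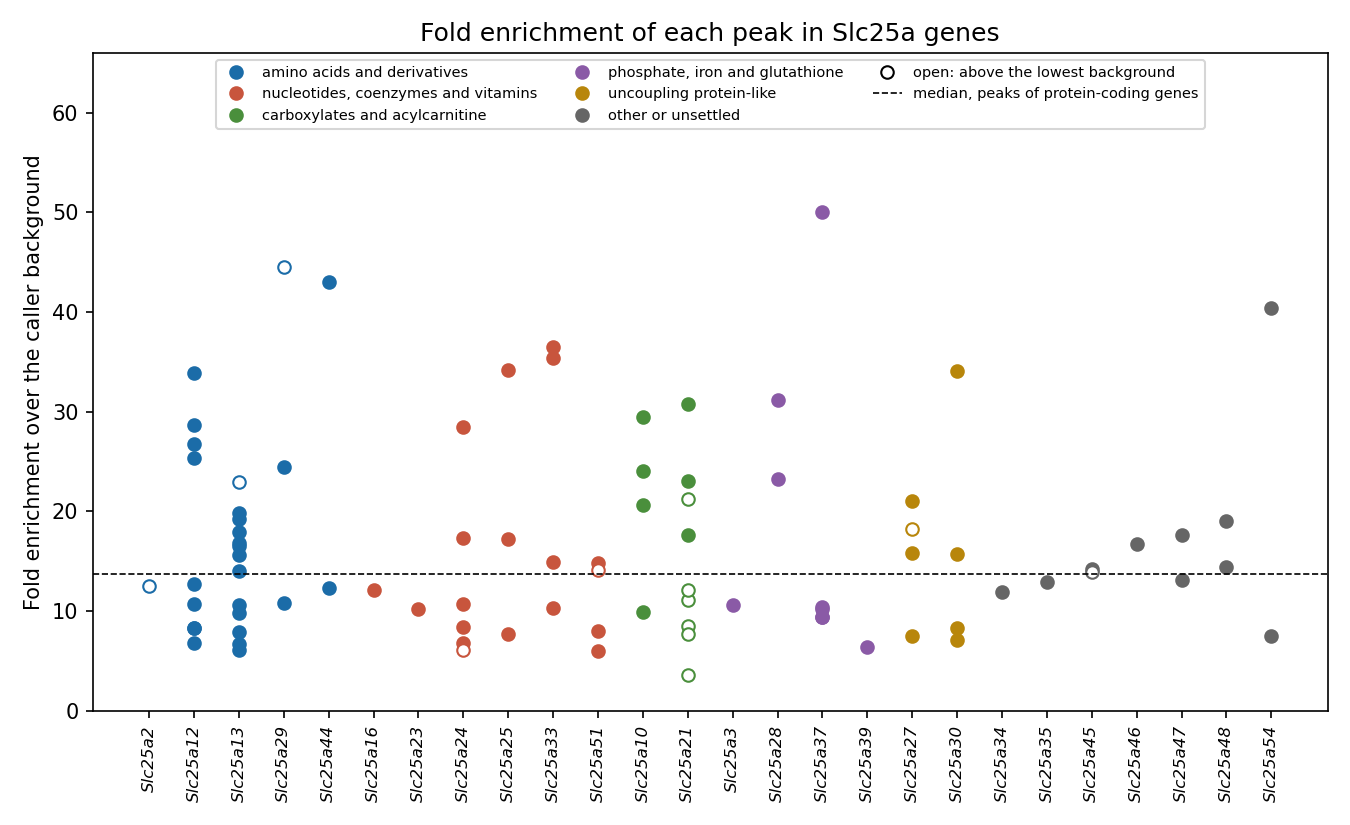
Fold enrichment (y axis) of 88 peaks in 26 genes with a peak (x axis), coloured by substrate class; open circles are the 13 peaks above the lowest background, and the dashed line is the median of peaks in protein-coding gene windows, 13.7. The highest fold of the family is in Slc25a37 and the lowest, 3.54, in Slc25a21.

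The strength of the family's peaks was close to that of peaks in genes in general. Their median fold was 14.1 (quartiles 9.50 and 21.5), against 13.7 (8.82 and 22.6) over the 45189 peaks of protein-coding gene windows. Median widths were 393 and 392 bp and median pileups 121 and 115 reads. A fold of at least 20 was found in 27 peaks (29%), against 30.7%. By class, the median fold ran from 10.4 for phosphate, iron and glutathione carriers to 17.6 for carboxylate carriers, but the first rests on 9 peaks and the second on 13 peaks of 2 genes.

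Peaks within 1 kb of a gene end were found in 10 of 33 genes (30.3%), against 21.8% of protein-coding genes and 22.3% of similar-length genes on average (7.36 of 33). This count depends on the distance allowed, being 3 genes within 500 bp and 18 within 2 kb. The shares of other genes at those 2 distances are not given here, so only the count at 1 kb has a reference. In the 23 genes of known strand, 2 had a peak within 1 kb of the start (Slc25a54 and Slc25a34) and 5 within 1 kb of the 3′ end (Slc25a12, Slc25a28, Slc25a29, Slc25a33 and Slc25a47). That of Slc25a12 (chr2:71274867-71275430, fold 25.4) lay 879 bp before the end. The shares of protein-coding genes were 6.72% at the start and 16.9% at the 3′ end, so the family showed the same order, at 8.70% and 21.7%.

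Along the gene body, 9, 15, 19 and 26 of 69 peaks fell in 4 equal stretches taken in order from 5′ to 3′, or 13%, 21.7%, 27.5% and 37.7%. Protein-coding genes gave 16.4%, 21.8%, 26.1% and 35.7%, so the tilt toward the 3′ end was one the family shared with genes in general. Among the genes of known strand with at least 2 peaks, Slc25a25, Slc25a28, Slc25a30 and Slc25a47 had them only beyond the midpoint of the gene. Slc25a45 had them only before the midpoint, and the rest had peaks on both sides of it. How often other protein-coding genes have all their peaks on one side was not counted, so these genes have no reference. From the gene start to the nearest peak midpoint, the distance had a median of 7801 bp over the 23 carriers and 8353 bp over 12547 protein-coding genes. It ranged from 17 bp in Slc25a54 to 40371 bp in Slc25a40.

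**Figure D4:**
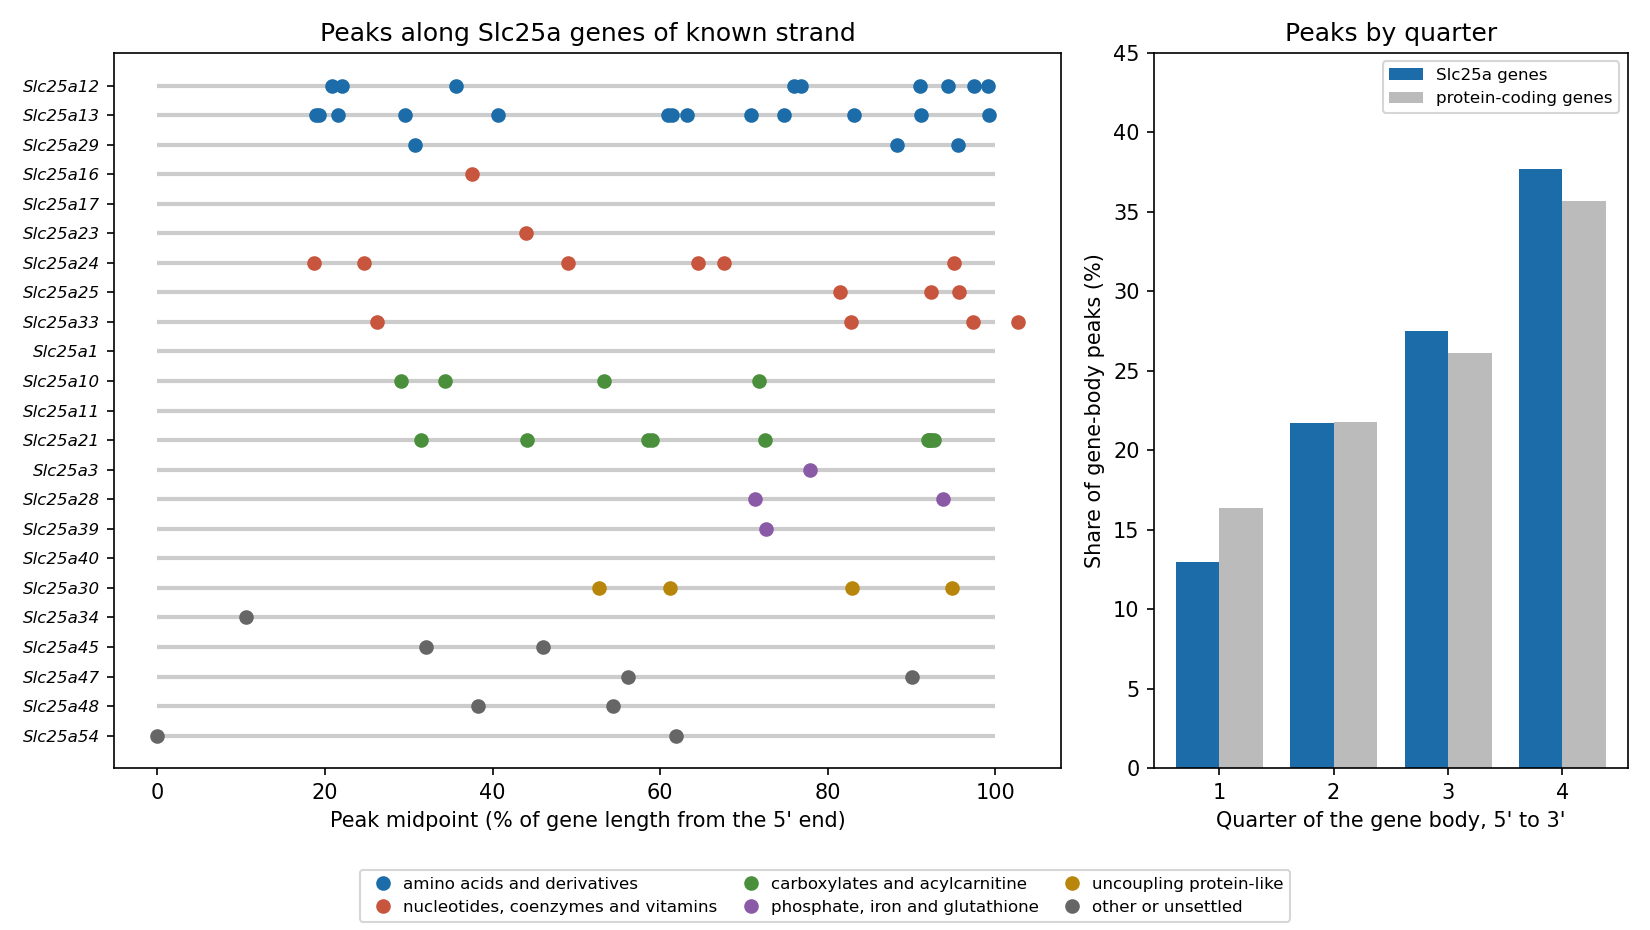
Left, peak midpoints as percent of gene length from the 5′ end (x axis) for the 23 carriers of known strand (y axis), coloured by substrate class; values above 100 lie beyond the 3′ end. Right, share of gene-body peaks in each of 4 equal stretches for these carriers (69 peaks) and for protein-coding genes (35568 peaks), rising from 13% to 37.7% in the carriers.

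Other mitochondrial transport genes were counted in the same way, from a list of 33 genes of which 24 lay on covered sequence. Of these, 17 (70.8%) had a peak, against 73.1% on average among genes of their lengths, and 3 (12.5%) had one within 1 kb of an end, against 22.5% of genes of their lengths (5.39 of 24). Of the 24 genes, 7 had more peaks than the median of similar-length genes, 10 had fewer and 7 equalled it. The calcium uniporter Mcu held 19 peaks where the median at its length was 7, and 12.3% of such genes had at least 19. The sodium/calcium exchanger Slc8b1 held 6 where the median was 2, and 9.49% had at least 6. Both subunits of the mitochondrial pyruvate carrier, Mpc1 and Mpc2, had none, in genes of 13881 and 19959 bp whose length peers had a peak in 68.9% and 71.7% of cases. Of 6 import factors that bring carriers to the inner membrane, 4 had a single peak each (Agk, Timm22, Timm9 and Tomm70a), and Timm10 and Timm13 had none. Genes of their lengths had a peak in 61.3% of cases (3.68 of 6). Timm10 and Timm13 are short, at 3193 and 1520 bp, and 37.4% and 35.1% of genes of those lengths had a peak. Of the 2 family members with other symbols on covered sequence, Mtch1 had 3 peaks and Mtch2 had none.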

How the data were processed

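The 6 MBD-seq samples have no values of their own here; the single deposited file is a peak list in narrowPeak layout. The submitters' processing notes name fastp, Bowtie2, MACS2 and the build mm10 or GRCm38, with no versions or settings, and per the file (its peak names) Samtools had merged 3 datasets before peaks were called. The deposited fold enrichment is the ratio of reads to background at the summit, the deposited −log10 p and −log10 q give each peak's significance (lowest −log10 q 20.004), and the deposited score is 10 times the −log10 q and was not used further. One incomplete last line was left out. No column of values from other samples was found.

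Computed here, in Python 3.11.15 with pandas 2.3.3: peaks were placed by midpoint in RefSeq GRCm38.p6 genes lying beyond the first 3 Mb of chromosomes 1 to 6 and 10 to 19. Pileup and background were solved from fold and p, with (pileup + 1)/(background + 1) as the fold and a Poisson tail as p. A whole-number pileup matched within 1% of its spacing in 99.97% of peaks and in every carrier peak. Both steps were tested on simulated data. Strand came from the promoter table, where 10 of the 33 genes have no entry. All members count in the totals, but 1 carrier and 1 other transport gene are not reported here on their own. The rule was to name all 33 genes and to describe single peaks for genes with a peak within 1 kb of an end, the 6 genes with most peaks and the 4 with most peaks per 100 kb among those with at least 2. Other peaks, such as the strongest of a gene, were picked out after their values were seen. Members and lists were chosen with earlier results of these data known. The alternatives were windows of 500 bp and 2 kb, placement by summit or by overlap, merging, stricter q or fold, and each kind of background.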

Additional observations from a re-analysis of the deposited data

How the results depend on the processing

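No paired analysis was possible because no sample has a value of its own; for the same reason no replicate could be left out. Of 62 alternative values, 47 stayed within 1.5 times the reported value and 15 did not. For the share of similar-length genes the yardstick was instead 49.6% to 80.2%, the 95% Wilson interval of 22 of 33 genes, which only sets a width and is no error of that share. Peaks with a −log10 q of at least 100 left 46 peaks in the family (3.28 per 100 kb, median fold 22.2) and 6 genes with a peak at an end. Keeping peaks at or over the median fold left 50 peaks (3.57 per 100 kb, median fold 21.1) and 6 such genes. Peaks above the lowest background left 14 peaks (1 per 100 kb) in 9 genes, with 1 at an end, where genes of similar length had such a peak in 18.1% of cases. These filters remove peaks by construction. The count of genes with a peak at an end was 3 with 500 bp and 18 with 2 kb. None of these alternative counts at an end has a share of other genes beside it, so they cannot be read against genes in general. The count of genes with any peak ran from 20 to 28 under the other alternatives. It was 20 both at a −log10 q of at least 100, where the similar-length share was 50.9%, and at the median fold, where it was 54%. Genes of any biotype as reference gave a share of 61.2%.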
